A study of Mus musculus with 18 samples.

Results

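The 29 genes described here encode enzymes of cholesterol and fatty acid synthesis and the SREBP system that controls them. They were chosen by gene name and pathway role, from 54309 genes in the lymphocyte table and 13759 genes in the macrophage table, and all 29 passed the filter on low counts in both. They comprise 6 genes of the mevalonate pathway, 11 genes of the steps from squalene synthesis to cholesterol, 5 genes of the SREBP system and sterol transport, and 7 genes of acetyl-CoA supply and fatty acid synthesis. RNA was sequenced from sorted cells of C57BL/6J mice, labelled female and 8 to 10 weeks old, 20 days after MC38 mouse colon adenocarcinoma cells had been injected into the spleen to seed the liver. Type 1 lymphocytes were sorted as NKp46+ cells from pools of 6 to 8 samples of metastasis-free liver (MFL) or liver metastasis (LM). MFL gave NK cells (CD49a-CD49b+) and ILC1s (CD49a+CD49b-), and LM gave NK cells without CD49a (LM CD49a- NK) and with it (LM CD49a+ NK, CD49a+CD49b+), so that there were 4 lymphocyte groups, each with 3 libraries from independent sortings. The titles of the LM CD49a+ NK libraries call them ILC1, and they were grouped by their population label. Metastasis-associated macrophages (MAMs) were sorted from LM as CD11b+ cells with high or intermediate F4/80, again with 3 libraries of each. The labels and the sorting methods call the latter F4/80low, and the study's results call them F4/80int, the name used here. All mice carried the tumor, no untreated liver was compared, and LM was digested enzymatically whereas MFL was mashed and filtered, so that site and dissociation cannot be told apart.

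Mammalian cells build cholesterol from acetyl-CoA through mevalonate, isoprenoid diphosphates and squalene, and build fatty acids from the same acetyl-CoA through malonyl-CoA. When membrane sterol is low, SCAP escorts the SREBP precursors to the Golgi, where they are cleaved, and the released factors bind sterol regulatory elements in the promoters of these genes. When sterol is high, INSIG proteins retain SCAP in the endoplasmic reticulum. Macrophages also take up lipid from dead cells and lipoproteins, and activated NK cells are known to use SREBP for their metabolic response to cytokines.

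Total estimated counts lay between 8795721 and 14386834 per lymphocyte library and between 21278959 and 32267015 per MAM library. Levels are given in CPM, the count of a gene scaled by its library's total and TMM factor, and cannot be compared between the lymphocyte and MAM tables, which came from different library kits. In the sorted lymphocytes all 10 NK cell and ILC1 markers were present, and Itga1, which encodes CD49a, lay at 5.83 to 20.1 CPM in the CD49a- groups, 105 to 156 CPM in LM CD49a+ NK cells and 646 to 680.4 CPM in MFL ILC1s. Adgre1, which encodes F4/80, lay at 125 to 160.4 CPM in F4/80int MAMs and 806 to 1167 CPM in F4/80hi MAMs. Bulk RNA cannot tell fewer cells of one type from less RNA per cell.

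Promoter windows were available for 23 of the 29 genes, in 29 RefSeq entries of GRCm38.p6 that run from 250 bases before the annotated start to 50 bases after it. The sterol regulatory element was searched as TCACNCCAC on both strands, and 1 member window held it, that of Hmgcs1, against 1.24% of all 32851 windows. This promoter is shown because Hmgcs1, the HMG-CoA synthase, fell in F4/80hi MAMs and is the one member called in any comparison that carries these letters. The 250 bases before its start, on the plus strand at chr13:119690101-119690350, read as follows, with the match in capitals, 137 bases before the start.
Hmgcs1: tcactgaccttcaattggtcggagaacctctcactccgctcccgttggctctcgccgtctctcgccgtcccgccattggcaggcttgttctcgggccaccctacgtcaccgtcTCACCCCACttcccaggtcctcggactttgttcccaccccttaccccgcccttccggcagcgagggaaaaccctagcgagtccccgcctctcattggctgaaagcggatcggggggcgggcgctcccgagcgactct

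After the values were known, the search was repeated with the first 8 letters, TCACNCCA, which overlap the longer form. They occurred in 3 member windows, those of Hmgcs1, Srebf2 and Msmo1, and in 4.36% of all windows. All 3 genes are among the 13 of 29 members called lower in F4/80hi MAMs. Of these 13, Fdft1 had no promoter window and could not be searched. A negative log2 fold change was seen in 23 of the 29 members and in 49.0% of all genes tested. A link between these letters and the levels was not tested. The bases around the match of Srebf2 (plus strand, chr15:82147077-82147144, 162 bases before the start) and Msmo1 (minus strand, chr8:64733718-64733785, 177 bases before the start) are shown for comparison with Hmgcs1.
Srebf2: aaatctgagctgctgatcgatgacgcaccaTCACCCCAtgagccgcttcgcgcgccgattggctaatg
Msmo1: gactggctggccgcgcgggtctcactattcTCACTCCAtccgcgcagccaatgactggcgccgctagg

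Of other common promoter letters, CCAAT occurred in 20 of the 29 member windows and 37.4% of all windows, GGGCGG in 22 member windows and 35.7% of all, and the E-box CACGTG in 6 member windows and 7.15% of all. The E-box windows belonged to Dhcr7, Hsd17b7, Insig1, Sc5d and Scap. These are matches of letters, and binding was not measured.

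The comparison of F4/80hi with F4/80int MAMs asked how the macrophage subsets of the metastasis differ. Of the 29 genes, 13 fell and 3 rose in F4/80hi MAMs at an adjusted p under 0.1 in edgeR's quasi-likelihood test. Over all 13759 genes tested, 54.9% were called, 27.8% higher and 27.0% lower, so that the 55.2% of members called lay at the background while 44.8% of them were lower and 10.3% higher. The median log2 fold change of the members was -0.43, against 0.01 over all genes. Libraries of the subsets did not overlap for 13 members, 10 lower and 3 higher, against 58.4% of all genes without overlap.

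In the SREBP system, 4 of 5 genes fell. Srebf2 encodes SREBP-2, the main activator of the cholesterol genes, and its levels were 430.3, 434 and 335 CPM in the F4/80int libraries and 163, 185 and 202 CPM in the F4/80hi libraries. Every F4/80hi library lay below every F4/80int library, and the level was 2.18-fold lower (log2 fold change -1.12, SE 0.13, adjusted p = 0.000144). Srebf1, which encodes the SREBP-1 forms that act more on fatty acid genes, lay at 129 to 142 CPM and 99 to 121 CPM, a smaller change (log2 fold change -0.28, SE 0.09, adjusted p = 0.0352) that was lost without F4/80hi replicate 1 (adjusted p = 0.144) or without F4/80int replicate 2 (adjusted p = 0.101). Per kilobase of merged exons, the ratio of Srebf2 to Srebf1 levels was 2.05, 1.94 and 1.63 in the F4/80int libraries and 1.04, 1.05 and 1.06 in the F4/80hi libraries.

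Scap, the escort of the SREBPs, lay at 78, 76.3 and 70.5 CPM in F4/80int and 56.2, 46 and 55.5 CPM in F4/80hi MAMs, without overlap (log2 fold change -0.51, SE 0.10, adjusted p = 0.00289). Insig1, the sterol-regulated retention factor, lay at 52.3 to 80.7 CPM and 47.1 to 52.9 CPM, and the subsets overlapped slightly (log2 fold change -0.46, SE 0.15, adjusted p = 0.031). Stard4, a carrier of free sterol between membranes, did not pass the test, at 24.9 to 36.7 CPM and 25.6 to 29.2 CPM (log2 fold change -0.18, SE 0.14, adjusted p = 0.336), and was called without F4/80int replicate 3 (adjusted p = 0.0543).

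Of the 6 genes listed under the mevalonate pathway, 4 fell and none rose. Acat2, which feeds this pathway, was listed under acetyl-CoA supply instead, and it rose (log2 fold change 0.53, SE 0.17, adjusted p = 0.029 in the same edgeR test). Pmvk, the phosphomevalonate kinase, had the largest fall of all members, from 45.5, 34.1 and 33.7 CPM in F4/80int to 19.2, 17.5 and 14.9 CPM in F4/80hi MAMs. That is a 2.20-fold lower level (log2 fold change -1.14, SE 0.15, adjusted p = 0.000286). Mvd, which makes isopentenyl diphosphate in the next step, fell from 41.4, 44.3 and 30.4 CPM to 17.6, 21.4 and 17.2 CPM (log2 fold change -1.05, SE 0.15, adjusted p = 0.000613). Both genes were separated in every library.

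Idi1, the isomerase of isopentenyl diphosphate, lay at 69.5, 70.8 and 42.5 CPM in F4/80int and at 32.3, 36.2 and 31.9 CPM in F4/80hi MAMs, also without overlap (log2 fold change -0.87, SE 0.19, adjusted p = 0.00601). Hmgcs1 lay at 85.8, 90.4 and 58.5 CPM and at 58.2, 60.2 and 53.3 CPM (log2 fold change -0.45, SE 0.15, adjusted p = 0.0397). Its subsets overlapped through F4/80int replicate 3, and the call was lost without F4/80int replicate 1 (adjusted p = 0.114), F4/80int replicate 2 (adjusted p = 0.134) or F4/80hi replicate 3 (adjusted p = 0.122). The kinase Mvk, at 11.3 to 15.8 CPM and 14.3 to 15.5 CPM, and the farnesyl diphosphate synthase Fdps, at 48.5 to 88 CPM and 48.2 to 66.9 CPM, did not pass the test. Without F4/80int replicate 1 Mvk was called (adjusted p = 0.0461), and without F4/80int replicate 3 Fdps was called (adjusted p = 0.0259).

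From squalene synthesis to cholesterol, 4 of 11 genes fell and 1 rose. Cyp51, the lanosterol demethylase, lay at 106, 98.1 and 65.5 CPM in F4/80int and 42.6, 57.4 and 45 CPM in F4/80hi MAMs, with no overlap (log2 fold change -0.90, SE 0.19, adjusted p = 0.00638). Sc5d, the lathosterol oxidase, fell from 30.5, 31.7 and 23.4 CPM to 17.1, 17.6 and 17 CPM (log2 fold change -0.73, SE 0.12, adjusted p = 0.00137). Squalene synthase, Fdft1, and the methylsterol monooxygenase Msmo1 fell by less, with log2 fold changes of -0.59 (SE 0.18, adjusted p = 0.0236) and -0.52 (SE 0.15, adjusted p = 0.0179).

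Dhcr7, which reduces 7-dehydrocholesterol to cholesterol in a last step, went the other way. It lay at 29.2, 26.7 and 20.4 CPM in F4/80int and 33.4, 31.4 and 35.3 CPM in F4/80hi MAMs, higher in every F4/80hi library (log2 fold change 0.39, SE 0.13, adjusted p = 0.0391). Squalene epoxidase, Sqle, showed the largest change among the members not called, from 51.5, 52.2 and 31.3 CPM to 24.5, 39.8 and 28.4 CPM (log2 fold change -0.54, SE 0.25, adjusted p = 0.11), and was called without F4/80int replicate 3 (adjusted p = 0.0146) or F4/80hi replicate 2 (adjusted p = 0.0429). Lanosterol synthase, Lss, lay at 11.2 to 20.3 CPM and 14.7 to 18.3 CPM. Tm7sf2, a sterol C14 reductase, lay at 5.71 to 7.06 CPM and 6.16 to 7.02 CPM, and Ebp, the sterol isomerase, at 60 to 63.6 CPM and 53.7 to 62 CPM. Nsdhl and Hsd17b7, which act together in demethylation at C4, lay at 14.7 to 21.7 CPM against 14.6 to 17.6 CPM and at 5.75 to 12.9 CPM against 6.29 to 8.02 CPM, and of these 5 genes Hsd17b7 was called without F4/80int replicate 3 (adjusted p = 0.0167).

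Of the 7 genes of acetyl-CoA supply and fatty acid synthesis, 1 fell and 2 rose. Acly, which splits citrate into cytosolic acetyl-CoA, lay at 327, 327 and 318 CPM in F4/80int and 234, 229 and 245 CPM in F4/80hi MAMs (log2 fold change -0.46, SE 0.08, adjusted p = 0.00144). Scd1, a stearoyl-CoA desaturase, rose from 12.1, 8.98 and 7.83 CPM to 21.1, 34.6 and 14.8 CPM, a 2.43-fold higher level with no overlap (log2 fold change 1.28, SE 0.33, adjusted p = 0.0157). Acat2, which joins acetyl-CoA units to acetoacetyl-CoA for the mevalonate pathway, rose from 14.6, 13.3 and 9.25 CPM to 17.6, 19.6 and 16.7 CPM (log2 fold change 0.53, SE 0.17, adjusted p = 0.029).

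The other desaturase, Scd2, lay at 287 to 337 CPM in F4/80int and 153 to 318 CPM in F4/80hi MAMs and did not pass the test (log2 fold change -0.43, SE 0.24, adjusted p = 0.183), but did without F4/80hi replicate 2 (adjusted p = 0.0127). Per kilobase of merged exons, Scd1 made up 4.22%, 2.71% and 2.48% of the summed level of both desaturases in the F4/80int libraries and 12.6%, 10.2% and 6.28% in the F4/80hi libraries. Reads that fit both genes were divided between them by the authors' quantification. The enzymes that make and extend palmitate varied within each subset. Acetyl-CoA carboxylase, Acaca, lay at 59.4 to 78.6 CPM and 42.7 to 69.5 CPM, fatty acid synthase, Fasn, at 130.2 to 218 CPM and 125 to 209.8 CPM, and the elongase Elovl6 at 10.8 to 13.7 CPM and 8.82 to 16.6 CPM, with log2 fold changes of -0.20 (SE 0.19), -0.07 (SE 0.24) and -0.06 (SE 0.23).

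**Figure D1:**
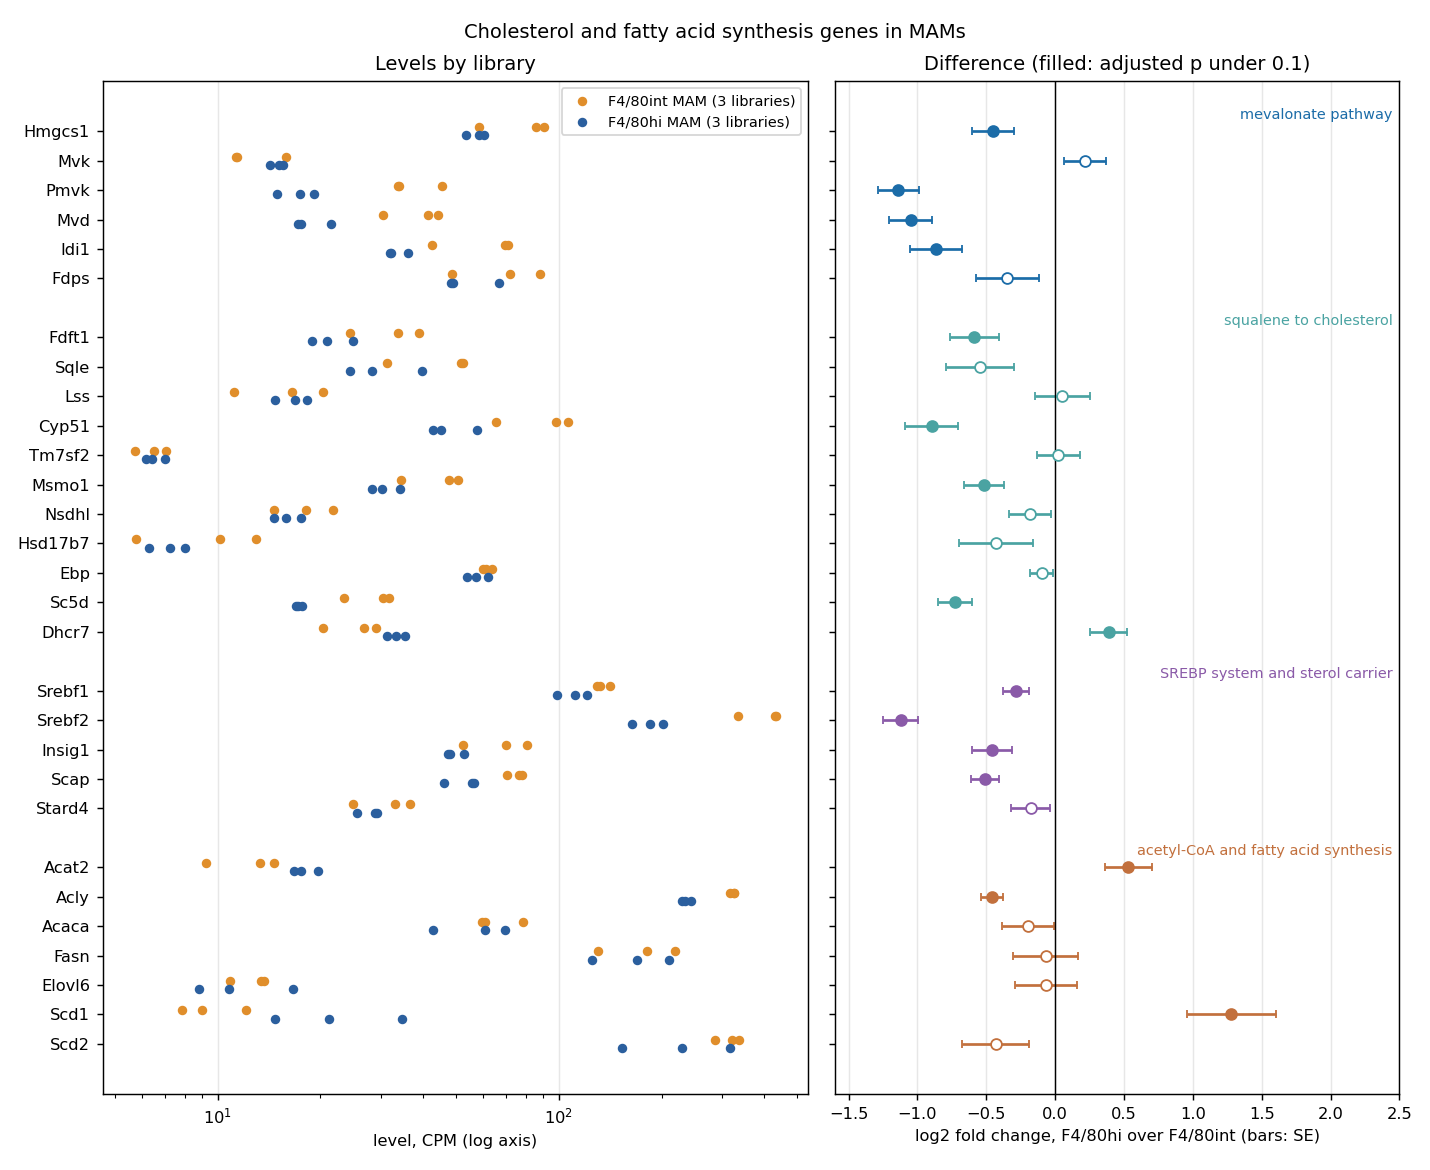
The left panel plots the level of each of the 29 genes in CPM on a log axis, with 1 point for each of 3 F4/80int and 3 F4/80hi libraries, and the right panel plots the log2 fold change of F4/80hi over F4/80int MAMs with its SE, filled where the adjusted p was under 0.1. The 13 filled points to the left of 0 include 4 of 5 genes of the SREBP system, and the 3 to the right are Dhcr7, Acat2 and Scd1.

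F4/80int replicate 3 was the lowest library of its group for all 13 members that fell and for 26 of the 29 members. The summed level of the 17 sterol enzymes was 778 and 724 CPM in F4/80int replicates 1 and 2, 523 CPM in F4/80int replicate 3, and 466, 526 and 456 CPM in the F4/80hi libraries. Without F4/80int replicate 3, 20 members were called, 17 lower and 3 higher, against 48.8% of all genes. All 16 members called with every library remained called. The summed level of the 5 genes of the SREBP system was 754, 758 and 612 CPM in F4/80int and 397, 419.7 and 454 CPM in F4/80hi MAMs, without overlap.

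Markers of several cell types moved with the same subsets. The summed level of 6 classical monocyte markers was 2064 to 2287 CPM in F4/80int and 452 to 574 CPM in F4/80hi MAMs, and that of 6 dendritic cell markers was 375 to 668 CPM and 10.1 to 16.2 CPM. The 2 of 7 tumor epithelium markers in the table summed to 197 to 281 CPM and 8.3 to 11.8 CPM. The 6 of 12 hepatocyte markers in the table summed to 50.3 to 67.2 CPM and 3.21 to 16.5 CPM, and the 4 of 6 neutrophil markers to 10.5 to 80.6 CPM and 0.315 to 1.07 CPM. The 12 proliferation genes went the other way, at 783 to 922 CPM and 1822 to 2162 CPM, as did the 8 macrophage markers, at 4691 to 5338 CPM and 13660 to 17360 CPM. Their part in the changes of the members was not tested.

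The remaining genes of lipid metabolism did not share one direction in MAMs. Of 66 other genes of sterol and fatty acid synthesis, SREBP processing, LXR-driven efflux and lipid uptake that were tested, 23 rose and 17 fell. Over all genes tested, 27.8% were called higher and 27.0% lower. Of the 15 other sterol and isoprenoid enzymes 5 rose and 3 fell, of the 21 other fatty acid genes 10 rose and 4 fell, of the 10 LXR and efflux genes 5 rose and 4 fell, of the 12 uptake and storage genes 2 rose and 6 fell, and of the 8 other SREBP processing genes 1 rose. The largest rises were those of Ch25h, Abca1 and Apoe. Ch25h, which makes 25-hydroxycholesterol, an oxysterol that holds back SREBP cleavage, rose from 6.8, 5.84 and 7.26 CPM to 76.5, 116 and 112 CPM (log2 fold change 3.94, SE 0.18, adjusted p = 1.8e-06). In the same edgeR test, Abca1 had a log2 fold change of 2.17 (SE 0.32, adjusted p = 0.00169) and Apoe of 2.00 (SE 0.21, adjusted p = 8.6e-05). The part of these genes in the changes of the members was not tested.

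The largest falls were those of the elongase Elovl7, from 0.722, 1.02 and 1.56 CPM to 0.045, 0.0709 and 0.0324 CPM (log2 fold change -4.35, SE 0.57, adjusted p = 0.000326), and of the fatty acid binding proteins Fabp4 (log2 fold change -2.74, SE 0.38, adjusted p = 0.00044) and Fabp5 (log2 fold change -1.97, SE 0.17, adjusted p = 4.8e-05). Fabp5 lay at 91, 58.9 and 62.4 CPM in F4/80int and 19, 19.3 and 16 CPM in F4/80hi MAMs. Fabp4 was scarce, at 2.42 to 4.24 CPM and 0.27 to 0.616 CPM.

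In the lymphocytes the 29 genes were called in 1 of 6 comparisons, and the gene was Scd2. The summed level of all members lay between 1061 and 1449 CPM in the 12 libraries. Per kilobase of merged exons, Fasn had a mean level of 15.8 to 22.5 CPM per kb and Acly of 14.5 to 18.3 CPM per kb over the 4 groups. In CPM, the 17 sterol enzymes together summed to between 159 and 237 per library, and Fasn alone had group means of 184 to 263. Members at low levels had no counts in some libraries: 6 members had a library at 0 counts among the LM CD49a- and 7 among the LM CD49a+ libraries, against 3 among MFL NK cells and 2 among MFL ILC1s. The median coefficient of variation of a member over 3 libraries was 61.2%, 53.1%, 25% and 28.5% in the same order.

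**Figure D2:**
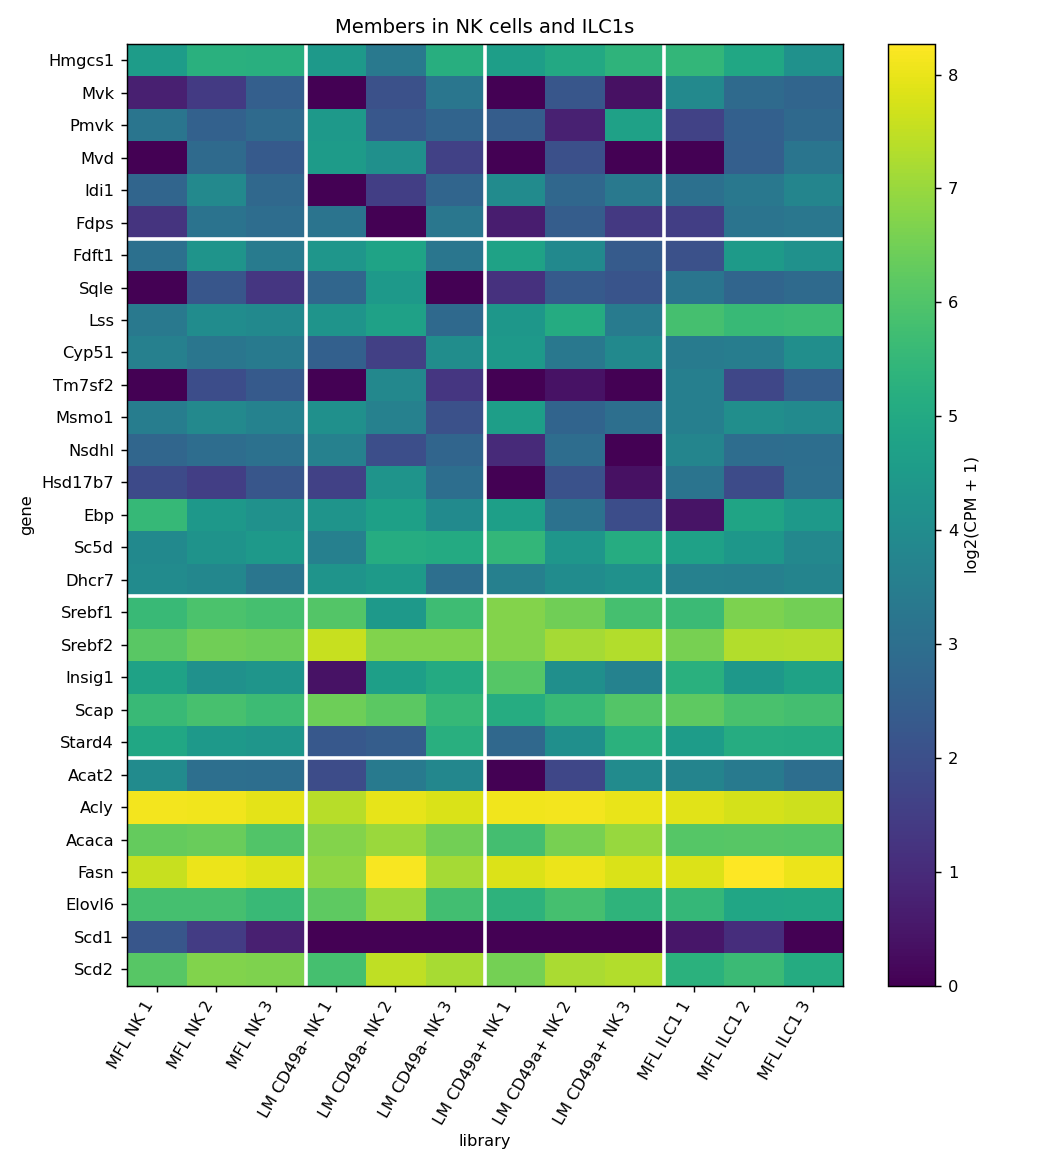
Each cell gives the level of a member (rows, in the order of their roles) in 1 of the 12 lymphocyte libraries (columns) as log2(CPM + 1). Acly, Fasn, Acaca, Srebf2 and Scd2 are bright in every group, while Mvk, Mvd, Tm7sf2, Sqle and Scd1 have libraries at 0.

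Between the MFL populations, MFL ILC1s were compared with MFL NK cells. No member was called by edgeR's quasi-likelihood test, against 3.21% of the 13594 genes, and 3 members had an unadjusted p under 0.05, against 8.43% of the genes. DESeq2 and limma-voom called 2 and 7 members, against 4.91% and 19.6% of the genes. The median log2 fold change was 0.22, against 0.01 over all genes. Libraries did not overlap for 7 members, 4 higher (Lss, Srebf2, Sqle and Mvk) and 3 lower (Scd2, Elovl6 and Acly) in ILC1s, against 25.3% of all genes.

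The largest difference in this comparison was that of Lss, which closes squalene epoxide to lanosterol. Its level was 9.07, 15.3 and 14.2 CPM in the MFL NK libraries, and ILC1s lay higher, at 56.5, 46.6 and 48.6 CPM (log2 fold change 1.97, SE 0.64, adjusted p = 0.147). It lay at 6.07 to 25.4 CPM in LM CD49a- and 9.77 to 33 CPM in LM CD49a+ NK cells, below every ILC1 library. Lss was called by DESeq2 (adjusted p = 0.0271), by limma-voom (adjusted p = 8.61e-06) and in a fit of the MFL groups alone (adjusted p = 0.00264). It was not called with the replicate number as a block (adjusted p = 0.16) or without the filter on low counts (adjusted p = 0.2). Every edgeR fit that left out 1 library of these groups also missed the threshold (adjusted p from 0.379 to 0.587).

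Scd2 lay at 68, 104 and 102 CPM in the MFL NK libraries, and ILC1s lay lower, at 37.7, 49.2 and 33.3 CPM (log2 fold change -1.19, SE 0.37, adjusted p = 0.114). It passed the threshold without the filter on low counts (adjusted p = 0.0205), by DESeq2 (adjusted p = 0.0988), by limma-voom (adjusted p = 4.48e-05), with the replicate number as a block (adjusted p = 0.062) and in a fit of the MFL groups alone (adjusted p = 0.0137), and missed it without MFL ILC1 replicate 3 by the most (adjusted p = 0.435). Srebf2 lay at 70.2, 89 and 84.8 CPM in the MFL NK libraries and at 93.9, 159.6 and 163 CPM in the ILC1 libraries (log2 fold change 0.77, SE 0.30, adjusted p = 0.316). All 5 genes of the SREBP system had a positive log2 fold change in ILC1s and 5 of 7 fatty acid genes a negative one, none of them called. Over all genes tested, 50.4% had a positive and 49.6% a negative log2 fold change. Several of these members had values smaller than their SE, among them Insig1 (0.45, SE 0.95), Scap (0.26, SE 0.36), Stard4 (0.35, SE 0.80) and Acaca (-0.15, SE 0.31). T cell markers (6 genes) summed to 4.98 to 14.7 CPM in the MFL NK libraries and to 247 to 681 CPM in those of ILC1s, and their part was not tested.

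LM CD49a+ NK cells were then compared with MFL ILC1s, the other CD49a+ population. Scd2 was the 1 member called, and 3.46% of the 13594 genes were called, with 2.23% called higher in LM CD49a+ NK cells. Its level was 91.8, 147 and 160.0 CPM in LM CD49a+ NK cells, above every ILC1 library, and 3.32-fold higher on average (log2 fold change 1.73, SE 0.37, adjusted p = 0.0111). The call held in every alternative run, with adjusted p from 3.91e-05 to 0.067. In LM CD49a- NK cells Scd2 lay at 55.6, 178 and 145 CPM, a range that covers that of LM CD49a+ NK cells. Between the groups compared, the 12 proliferation genes summed to 1077 to 1617 CPM in LM CD49a+ NK cells, against 374 to 520.4 CPM in ILC1s, and the 6 T cell markers to 5.18 to 35.7 CPM, against 247 to 681 CPM. Their part in the Scd2 difference was not tested.

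Libraries of this comparison did not overlap for 7 members, 2 higher (Scd2 and Acly) and 5 lower (Lss, Mvk, Sqle, Tm7sf2 and Nsdhl) in LM CD49a+ NK cells, against 23.2% of all genes. The median log2 fold change was -0.16, against -0.07 over all genes. The largest change not called was that of Tm7sf2, with 0, 4 and 0 counts in the LM CD49a+ libraries and 127, 33 and 49 counts in the ILC1 libraries (log2 fold change -5.65, SE 2.58, adjusted p = 0.325), and DESeq2 called it.

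**Figure D3:**
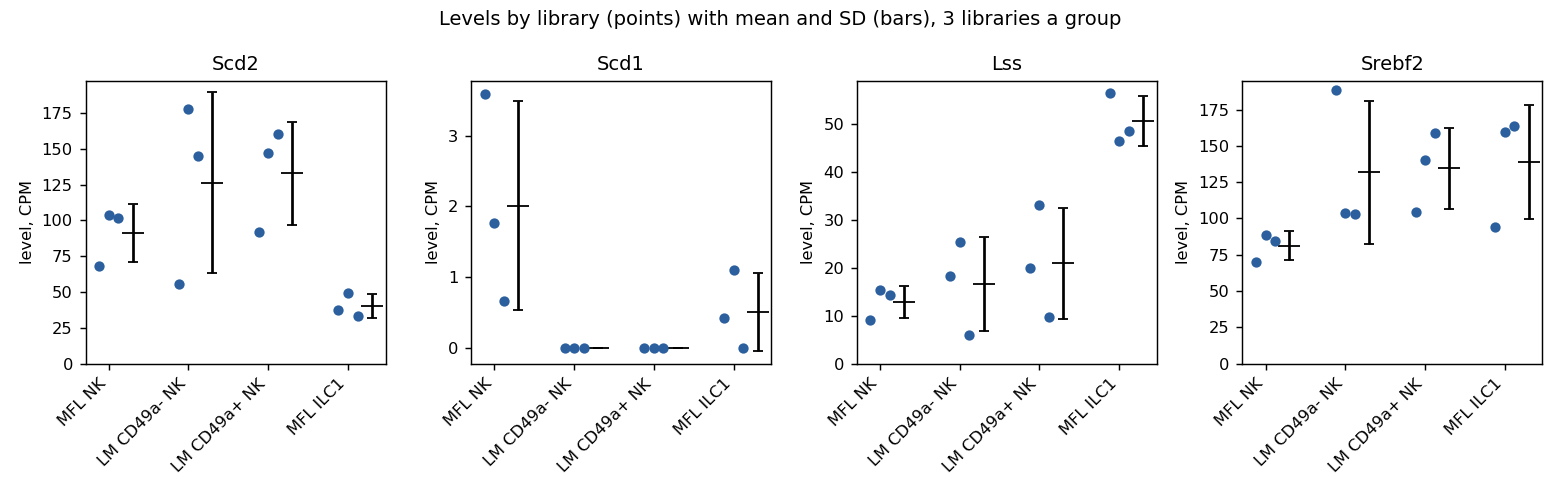
Points give the level in CPM of Scd2, Scd1, Lss and Srebf2 in each of 3 libraries of the 4 lymphocyte groups, and the bars give the mean and SD. The 3 ILC1 libraries are below every other library for Scd2 and above every other library for Lss, and Scd1 is at 0 in all 6 LM libraries.

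LM NK cells were compared with MFL NK cells to ask what changes in the metastasis. Without CD49a, no member and 0.0441% of the genes were called, and with CD49a no member and 0.706%. In each comparison 2 members had an unadjusted p under 0.05, against 6.6% and 9.68% of the genes, and DESeq2 and limma-voom called 0. The medians of the members were 0.36 and 0.02 on the log2 scale, against -0.09 and -0.04 over all genes, and the first was -0.26 with limma-voom. Libraries did not overlap for 4 members in LM CD49a- NK cells (Srebf2 and Acaca higher, Scd1 and Idi1 lower), against 16.2% of all genes, and for 2 in LM CD49a+ NK cells (Srebf2 higher, Scd1 lower), against 20.1%.

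Srebf2 lay at 189, 104 and 103 CPM in the LM CD49a- and 104, 141 and 159 CPM in the LM CD49a+ libraries, above the 70.2 to 89 CPM of MFL NK cells, without passing the test (log2 fold changes 0.70 and 0.73, SE 0.30 in both, adjusted p = 0.725 and 0.432). These comparisons share the MFL NK libraries. Scd1 had 44, 24 and 9 counts in the MFL NK libraries, 5, 15 and 0 counts in MFL ILC1s, and 0 counts in all 6 LM libraries. Against a floor of 3 counts per library its level was at least 6.67-fold lower in LM CD49a- and at least 7.31-fold lower in LM CD49a+ NK cells, relative to MFL NK cells, and it was not called (adjusted p = 0.725 and 0.417). Without MFL NK replicate 1, which had the highest Scd1 level, the bounds were 4.04-fold and 4.42-fold. The summed level of 12 hepatocyte markers was 18.7 to 147 CPM in MFL NK cells, 48.3 to 102 CPM in MFL ILC1s, 0 to 6.35 CPM in LM CD49a- and 0 to 13.1 CPM in LM CD49a+ NK cells. Alb, a hepatocyte marker, lay at 72.4, 24.4 and 13 CPM in the MFL NK libraries, in which Scd1 lay at 3.59, 1.77 and 0.661 CPM. In the MFL ILC1 libraries Alb lay at 63.8, 22.5 and 36.1 CPM and Scd1 at 0.424, 1.1 and 0 CPM. Of the 12 markers, 7 were at 0 in every LM CD49a- library and 8 in every LM CD49a+ library, and the part of hepatocyte RNA was not tested.

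Within LM, CD49a+ and CD49a- NK cells were compared. No member and 0.177% of the genes were called, 3 members had an unadjusted p under 0.05, against 11.7% of the genes, and DESeq2 and limma-voom called 0. Libraries did not overlap for 2 members, Acly and Idi1, both higher in CD49a+ NK cells, against 9.82% of all genes. Acly lay at 165, 247 and 221 CPM in the CD49a- libraries and 269, 275 and 256 CPM in the CD49a+ libraries (log2 fold change 0.34, SE 0.21, adjusted p = 0.566). The largest change was that of Tm7sf2, with 0, 123 and 19 counts in the CD49a- and 0, 4 and 0 counts in the CD49a+ libraries (log2 fold change -5.41, SE 2.55, adjusted p = 0.423). The elongase Elovl6 had the lowest unadjusted p, at 72.6, 131 and 53 CPM and 39.2, 55.6 and 40.4 CPM (log2 fold change -0.92, SE 0.39, adjusted p = 0.39). The 12 proliferation genes summed to 543 to 924 CPM in CD49a- and 1077 to 1617 CPM in CD49a+ NK cells, and the sums of the fatty acid genes were 518 to 988 CPM and 682 to 833 CPM.

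The difference between CD49a+ and CD49a- cells in LM was set against that in MFL in the same fit. No member and 1.04% of the genes were called, 2 members had an unadjusted p under 0.05, against 8.74% of the genes, and DESeq2 and limma-voom called 0. Scd2 had the lowest unadjusted p (log2 difference 1.26, SE 0.51, adjusted p = 0.475), and the largest value was that of Tm7sf2 (log2 difference -6.77, SE 3.27, adjusted p = 0.575).

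**Figure D4:**
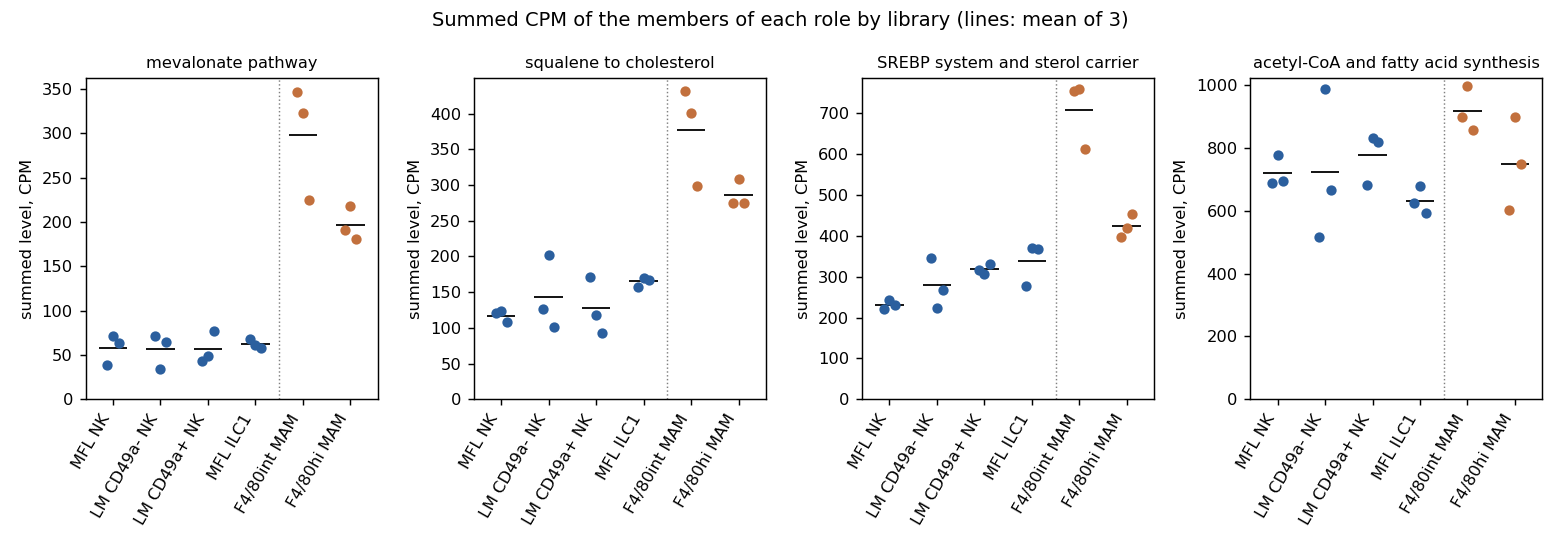
Each panel plots the summed CPM of the members of one role, with 1 point per library and a line at the mean of 3. The SREBP system is at 397 to 454 CPM in F4/80hi and 612 to 758 CPM in F4/80int MAMs, and the lymphocyte groups left of the dotted line come from a separate table that is not compared with the MAMs.

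Of 56 other lipid genes tested in the lymphocytes, between 0 and 5 were called per comparison, against 0.0441% to 3.46% of all genes. The 5 were called between LM CD49a+ NK cells and MFL ILC1s, where 3.46% of all genes were called. Lpin1, a phosphatidate phosphatase of glycerolipid synthesis, was called in 5 of 6 comparisons. Its level was 455, 387 and 429 CPM in MFL NK, 382, 466 and 364 CPM in LM CD49a- NK, 80.6, 128 and 223 CPM in LM CD49a+ NK, and 60.6, 37.6 and 46.9 CPM in MFL ILC1s. The groups order as MFL NK and LM CD49a- NK cells, which overlap, then LM CD49a+ NK cells, then MFL ILC1s. The level was 8.76-fold lower in MFL ILC1s (log2 fold change -3.13, SE 0.31, adjusted p = 1.58e-06) and 2.95-fold lower among LM CD49a+ cells (log2 fold change -1.56, SE 0.29, adjusted p = 0.0129) than in MFL NK cells.

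Within LM, the CD49a+ libraries had a 2.81-fold lower Lpin1 level than the CD49a- libraries (log2 fold change -1.49, SE 0.29, adjusted p = 0.051), a call lost without LM CD49a+ replicate 1 (adjusted p = 0.176) or 2 (adjusted p = 0.159) and in a fit of the LM groups alone (adjusted p = 0.632). Elovl7 had 0 counts in the 3 ILC1 libraries and 27.8, 14.5 and 16.1 CPM in MFL NK cells, at least 77.1-fold lower against a floor of 3 counts per library (adjusted p = 0.0409). It also had 0 counts in replicate 1 of LM CD49a- and of LM CD49a+ NK cells, and 113 to 197 counts in the other LM libraries. Acss2, which makes acetyl-CoA from acetate, lay at 68.8 to 88.6 CPM in the MFL NK libraries and 21.3 to 38.9 CPM in the ILC1 libraries (log2 fold change -1.46, SE 0.43, adjusted p = 0.0866). Trim21 and Mylip, the latter an LXR target that degrades lipoprotein receptors, were lower in the LM CD49a+ libraries than in ILC1s (log2 fold changes -2.15, SE 0.60, and -1.06, SE 0.31, adjusted p = 0.0645 and 0.0785). Lpin1, Elovl7 and the lipid uptake and storage gene Npc1 were called higher in that comparison. For Npc1 the edgeR test gave a log2 fold change of 1.41 (SE 0.30, adjusted p = 0.0109), and its dependence on single libraries was not examined. Without MFL ILC1 replicate 3 the calls of Elovl7, Acss2, Trim21 and Mylip were lost (adjusted p = 0.144, 0.445, 0.126 and 0.107), and each was also lost without at least 1 other library.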

How the data were processed

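RNA-seq of 12 libraries of sorted type 1 lymphocytes and 6 of MAMs was analysed, with 3 libraries per group, grouped by their labels. Both tables were deposited as estimated counts, one value per gene and library, not normalized. The authors trimmed the lymphocyte reads, quantified them with Salmon v1.5.0 against GENCODE M27 transcripts of GRCm39 and summed them to genes with tximport. The MAM reads were quantified with Salmon v1.10.0, and the annotation release is not given in the sources used here. The lymphocyte libraries were stranded total RNA and the MAM libraries poly(A) RNA.

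Counts were rounded. Genes were kept by filterByExpr, which left 13594 of 54309 and 13759 of 13759 genes (the lowest gene total over the MAM libraries was 37, so low genes had been removed before deposit), scaled by TMM and compared with edgeR v4.0.16 (quasi-likelihood test, R v4.3.3), fitting the 12 lymphocyte and the 6 MAM libraries separately. Benjamini-Hochberg adjustment ran over all genes tested, and 0.1 was the threshold. The SE is the log2 fold change divided by the square root of F. Fits were checked on simulated counts. The rule for the 29 genes names them and has no threshold on their values, but they and the other lists were chosen with earlier results of these data known. Every member was to be named, with the tests of those called and of the largest change not called, and at most 3 other lipid genes per comparison and direction. Gene names and exon lengths are from GENCODE vM39. Alternatives used DESeq2 v1.42.0 size factors and Wald test, limma v3.58.1 voom with quality weights, no low-count filter, a replicate block, a fit of the compared groups only, removal of mitochondrial, ribosomal and small RNA genes, a threshold of 0.05, and leaving out each library. P-values of the main fits set a difference between groups against the spread between libraries. For the lymphocytes this spread was estimated over all 12 libraries, also those outside a comparison. Each lymphocyte library was a pool of 6 to 8 samples, so that spread between single mice was not measured. With 3 libraries against 3, an exact permutation test cannot go below 0.1.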

Additional observations from a re-analysis of the deposited data

Results flagged for a closer look

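The Lpin1 difference between CD49a+ and CD49a- cells was smaller in LM than in MFL by a test of the difference itself (log2 difference 1.64, SE 0.41, adjusted p = 0.0749 in edgeR's quasi-likelihood test). The call was lost with the replicate block (log2 difference 1.59, adjusted p = 0.117) and without any one of 9 of the 12 libraries, with adjusted p from 0.105 to 0.214. The log2 fold changes behind it were -1.49 in LM and -3.13 in MFL. None of the 29 genes passed this test.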

How the results depend on the processing

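In MAMs, between 14 and 20 members were called under the alternatives, and the median log2 fold change of the members lay between -0.47 and -0.27. At the threshold of 0.1 these alternatives called 47.8% to 57.8% of all genes. The replicate block, DESeq2 and limma-voom each called 18, adding Sqle and Scd2 to the 16. The calls of Hmgcs1 and Srebf1 were the ones lost among the 16, each by leaving out single libraries. In MFL ILC1s against MFL NK cells, where 0 members were called, the alternatives called 1 without the filter on low counts, 2 with DESeq2, 7 with limma-voom, 1 with the replicate block and 3 in the fit of the compared groups only. The shares of all genes called were 2.54%, 4.91%, 19.6%, 3.34% and 9.81% in the same order, and the cause was not tested. In LM CD49a+ NK cells against MFL ILC1s, DESeq2 called 2 members, Scd2 and Tm7sf2, in place of 1, and 7.43% of all genes. The other 4 lymphocyte comparisons called 0 members under every alternative run, and no called member changed direction. The labels do not say whether libraries with the same replicate number came from one sorting. Deviations of same-numbered libraries from their group means correlated at -0.0452 to 0.0981 in the lymphocytes and -0.0145 to 0.172 in MAMs. For libraries with different numbers the correlations were -0.108 to 0.0836 and -0.123 to 0.0907. Such values cannot settle whether the libraries are paired, and the main fits left pairing out. The alternatives for genes outside the 29 and the Scd1 bound without MFL NK replicate 1 were added after the data were seen.

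Depth sets the floor of 3 counts for members at 0 counts. The common biological coefficient of variation, which is spread beyond counting error, was 0.891 in the lymphocytes and 0.162 in MAMs.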
